A study of Mus musculus with 18 samples.

Results

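The measurements concern the 2 mature arms of 1 hairpin, miR-126-3p and miR-126-5p, taken by name from a table of 583 mature mouse miRNAs (2 of 583 rows). Small RNA of mammary tumours was pooled within each of 18 strains, and every pool gave 1 library. The tumour-bearing mice were F1 offspring of AKXD recombinant inbred strains (2, 3, 7, 9, 10, 11, 13, 14, 16, 18, 20, 21, 22, 23, 24, 25, 27 and 28; AKR/J by DBA/2J) and FVB/N mice carrying the MMTV-PyVT transgene. The transgene is shared by all strains and drives the polyoma virus middle T oncogene from the mouse mammary tumour virus promoter, which is active in mammary epithelium. With n = 1 library a strain, a difference between a pair of strains has no replicate check, and the p-values below measure only the spread among these 18 pools. How many animals entered a pool, how old they were and which batch they belonged to is not stated in the labels.

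miR-126 is the best known miRNA of endothelial cells, and its hairpin lies within Egfl7, a gene of the vessel wall. The 3p arm is known to restrain Spred1 and Pik3r2, inhibitors of growth factor signalling, and so to favour angiogenesis and vessel integrity. The 5p arm is known to act on Dlk1 and to keep endothelial cells able to divide. Both arms are cut from the same precursor, and which arm is loaded and kept differs among hairpins. In bulk tumour RNA, fewer endothelial cells and less miRNA per cell cannot be told apart.

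The sequence of the 3p arm and that of its hairpin are shown because both measured rows come from this 1 precursor. In the first line capitals mark the seed, bases 2 to 8, which pairs with targets, and in the second they mark the 3p arm. Letters and positions are those of RefSeq on GRCm38.p6, where the arm lies at chr2:26591402-26591423 and the hairpin at chr2:26591357-26591429, both on the plus strand.
miR-126a-3p: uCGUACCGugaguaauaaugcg
Mir126a: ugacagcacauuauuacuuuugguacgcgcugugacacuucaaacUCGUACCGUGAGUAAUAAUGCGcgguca
RefSeq lists mmu-mir-126 as a synonym of Mir126a. The 3p seed occurred in 1 of the 1679 mature entries of the RefSeq table, that of miR-126a-3p itself. In GENCODE M21 the hairpin is spanned by 9 of the 19 transcripts of Egfl7 (chr2:26580014-26593120, plus strand), lying in an intron of 8 and under an exon of 1. Mir126b is annotated on the opposite strand of the same place, chr2:26591363-26591420.

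The libraries held 4361213 to 14939850 miRNA reads. Levels are given as CPM, reads brought to a common library total and divided by a scaling factor, which was lowest in strains 14, 10, 13 and 20 (0.671 to 0.777) and highest in strain 28 (1.67). Strains 10, 13, 14 and 20 also stood apart from the other 14 on the first principal component of the tested miRNAs, computed without the miR-126 arms (27.5% of the variance), with strain 23 next to them. Results that rest on these 4 libraries are therefore given with and without them. Only miRNAs that averaged 10 CPM or more over the strains were tested, 281 in all, and both arms passed.

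miR-126-3p was an abundant tumour miRNA, and its 5p partner was far lower in every strain. miR-126-3p averaged 12442 ± 3466 CPM (SD, n = 18), and ranked 18th of the 281 tested miRNAs. It was lowest in strain 16 at 7233 CPM, had a median of 11586 CPM and was highest in strain 14 at 20876 CPM. miR-126-5p averaged 1327 ± 371 CPM (SD, n = 18), and ranked 51st. It was lowest in strain 10 at 738.9 CPM, had a median of 1382 CPM and was highest in strain 27 at 2258 CPM. Strain 27 was thus high for both arms, with 17212 CPM of miR-126-3p, while strain 10, lowest for the 5p arm, had 16490 CPM of the 3p arm.

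**Figure D1:**
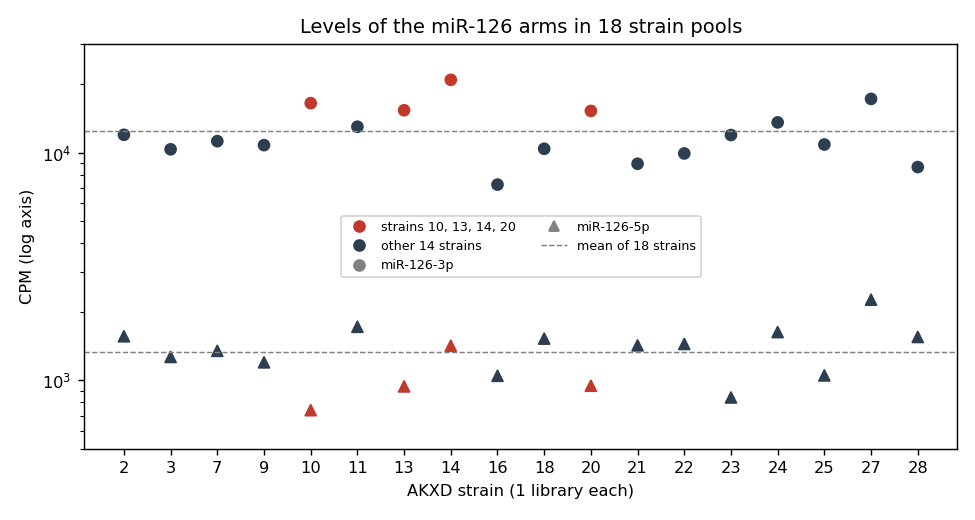
CPM (log axis) of miR-126-3p (circles) and miR-126-5p (triangles) in each strain, 1 library a strain, with the mean of 18 strains dashed. Strains 10, 13, 14 and 20 (red) lie at 15241 to 20876 CPM for the 3p arm, against 7233 to 17212 CPM in the other 14 (dark).

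In scaled CPM, both arms were steadier than the middle miRNA of the table. The SD across strains was 0.39 log2 for miR-126-3p and 0.41 log2 for miR-126-5p, against a median SD of 0.45 log2 over the 281 tested miRNAs. Of the tested miRNAs, 38.8% had a smaller SD than the 3p arm and 41.6% a smaller one than the 5p arm. The spread of the arms depended on the scaling. As a share of the reads of a library, miR-126-3p was 1.22 ± 0.202% and miR-126-5p 0.139 ± 0.0553% (SD, n = 18). Without scaling the 5p arm thus varied more, relative to its mean, than the 3p arm. Read counting gave an SD of only 0.0044 log2 for miR-126-3p and 0.013 log2 for miR-126-5p. In the order of strains by miR-126-3p, 4 of 17 neighbouring pairs had overlapping exact 95% counting intervals (3 and 18, 9 and 25, 23 and 2, 20 and 13). By miR-126-5p, 6 of 17 did (13 and 20, 16 and 25, 14 and 21, 21 and 22, 18 and 28, 28 and 2). These intervals cover counting error only, so that pairs apart by them are libraries, not strains, shown to differ.

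The place of strains 10, 13, 14 and 20 in the order of miR-126-3p depended on the scaling. In CPM their mean was 16988 CPM, against 11143 CPM in the other 14 strains. As a share of the reads of a library, without the scaling factor, miR-126-3p took 1.18 to 1.40% in strains 10, 13, 14 and 20, against 0.867% (strain 16) to 1.79% (strain 27) in the others, so that these 4 lay inside the range of the rest. The share of miR-126-5p was 0.0528% (strain 10) to 0.0952% (strain 14) in the 4 strains, against 0.0740% (strain 23) to 0.259% (strain 28) in the other 14, and the ranges overlapped only through strain 23 at the low end of the 14.

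The balance of the arms, which needs no scaling because both are counted in the same library, differed among strains. miR-126-5p made up 10.1 ± 3.13% of the reads of both arms (SD, n = 18). Its share was lowest in strain 10, at 4.29% (exact 95% interval 4.19 to 4.39%), had a median of 10.8% and was highest in strain 28, at 15.2% (14.97 to 15.43%). Strain 10 therefore had 22.3 reads of miR-126-3p for each read of miR-126-5p, and strain 28 had 5.58. The share was 5.77% in strain 13, 6.36% in strain 14 and 5.84% in strain 20. Strain 23 came next with 6.57% and strain 25 with 8.82%, and the remaining strains lay between 10.0% (strain 9) and 15.2%. Of 17 neighbouring pairs in this order, 8 had overlapping intervals, among them strains 14 and 23.

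**Figure D2:**
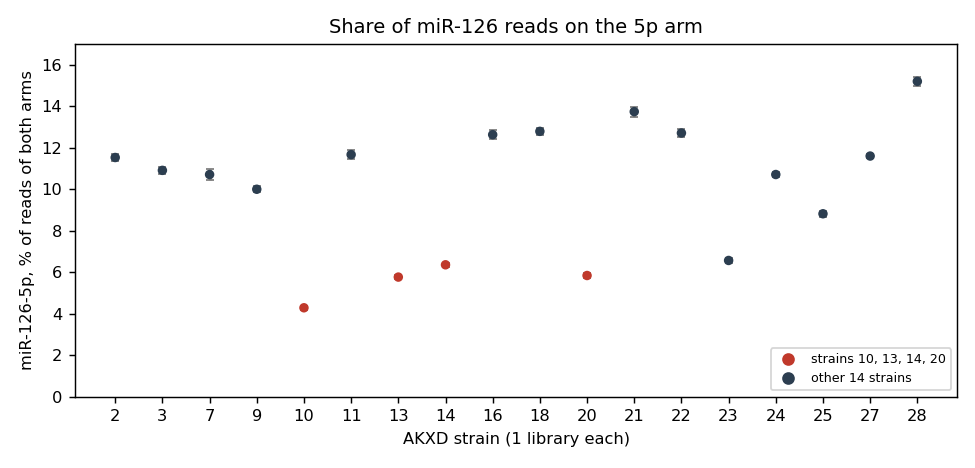
miR-126-5p as a percent of the reads of both miR-126 arms in each strain, with exact 95% binomial intervals that cover counting error only. Strains 10, 13, 14 and 20 (red) lie at 4.29 to 6.36%, and the other 14 strains (dark) at 6.57 to 15.2%.

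On the log2 scale the ratio of the 5p to the 3p arm averaged -3.23 ± 0.57 (SD, n = 18), from -4.48 in strain 10 to -2.48 in strain 28. It was -4.48 to -3.88 in strains 10, 13, 14 and 20, against -3.83 to -2.48 in the other 14. The ranges did not overlap, but strains 14 and 23, at the edges, were neighbours. This spread was not unusual for a hairpin: over 13 other hairpins with a 5p and a 3p row at 10 CPM or more, the SD of the same log2 ratio had a median of 0.59 (0.38 to 1.01), and 8 of the 13 exceeded miR-126.

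No relation between the levels of the 2 arms was detectable over the 18 strains. Pearson's r between their log2 levels was -0.016 (p = 0.949) and Spearman's rho was -0.030 (p = 0.909; n = 18, two-sided permutation tests with 100000 resamples). This and the 2 relations that follow form 1 family of 3, and the Benjamini-Hochberg adjusted p for rho was 0.909. Leaving out strains 14 and 16, the farthest from the median of miR-126-3p, r was -0.192. Without strains 10, 13, 14 and 20, r was 0.509 (permutation p = 0.0617) and rho 0.490 (permutation p = 0.0779), and r was 0.015 once strains 27 and 16 were left out as well. Leaving out strain 28 along with the 4 strains gave r = 0.588 (permutation p = 0.0348) and rho = 0.566 (permutation p = 0.0468), and r of 0.15 without strains 27 and 16. The positive relation among these strains thus rests on strain 27, high for both arms, and strain 16, low for the 3p arm.

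The arm ratio moved with 2 features of the libraries. With the log2 scaling factor, r was 0.844 (p = 2e-05) and rho 0.783 (p = 0.00025, adjusted p = 0.00075), and r stayed at 0.846 without strains 28 and 14 (n = 18, permutation tests). Without strains 10, 13, 14 and 20 r was 0.643 (permutation p = 0.0212) and rho 0.565 (permutation p = 0.0387). With log2 reads of the library, r was -0.568 (p = 0.013) and rho -0.608 (p = 0.00822, adjusted p = 0.0123, permutation tests), and r was -0.58 without strains 7 and 28. Without the 4 strains r was -0.513 (permutation p = 0.0576). Libraries with fewer reads and larger scaling factors had a larger share of the 5p arm. The part of either feature in the arm ratio was not tested.

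Which other miRNAs varied with each arm was examined with limma, as the slope of log2(CPM + 1) of every tested miRNA on the log2 level of the arm, adjusted over all miRNAs tested by Benjamini-Hochberg with a threshold of 0.05. A slope of 1 means that the miRNA doubled where the arm doubled. With miR-126-5p, 15 of 280 miRNAs were called (5.36%), 11 of them positive (3.93%) and 4 negative (1.43%). With miR-126-3p, 54 of 280 were called (19.3%), 30 positive (10.7%) and 24 negative (8.57%), and with the log2 ratio of 5p to 3p, 112 of 279 (40.1%), 53 positive (19%) and 59 negative (21.1%). These 3 covariates are made from the same 2 rows, so their calls are not independent. Scaling changed the splits: with total counts alone, 133 miRNAs were positive and 4 negative with miR-126-5p, 0 were called with miR-126-3p in limma (21 at an unadjusted p under 0.05), and 142 were positive and 4 negative with the ratio. Without strains 10, 13, 14 and 20, the limma calls numbered 1 with miR-126-5p, 1 with miR-126-3p and 0 with the ratio (20, 39 and 32 at an unadjusted p under 0.05).

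miR-142-3p, a miRNA of leukocytes and other blood cells, was the closest companion of miR-126-5p. It had 1360 CPM in strain 10, a median of 4302 CPM and 17093 CPM in strain 27, the strains where miR-126-5p was lowest and highest. Its slope on miR-126-5p was 1.96 ± 0.24 (SE; limma adjusted p = 3.47e-05; rho = 0.827, n = 18). It was also called in each of the 18 fits with 1 strain left out and in 10 of 10 other settings that tested it. Without strains 10, 13, 14 and 20 the slope was 1.80 ± 0.35 (limma adjusted p = 0.0231), and it was the 1 miRNA still called.
The mature sequence is printed because this is the row the relation turns on, with bases 2 to 8 in capitals (RefSeq, GRCm38.p6, chr11:87756903-87756925, plus strand, listed there as miR-142a-3p).
miR-142a-3p: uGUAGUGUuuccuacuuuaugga
Its seed differs from that of miR-126-3p.

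The same miRNA was not called with the 3p arm. The slope of miR-142-3p on miR-126-3p was 0.20 ± 0.53 (limma adjusted p = 0.802), and r was 0.086 over 18 strains but 0.651 without strains 10, 13, 14 and 20. In strains 10, 13 and 20 miR-142-3p stood at 1360, 1986 and 1932 CPM while miR-126-3p was at 15241 to 16490 CPM, and strain 14 had 5791 CPM of miR-142-3p with the highest miR-126-3p. The difference between its relations to the arms is tested by the slope on the arm ratio, which was 0.92 ± 0.30 (limma adjusted p = 0.023). That call was lost without strains 10, 13, 14 and 20 and on leaving out strain 10, 13 or 20 alone.

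**Figure D3:**
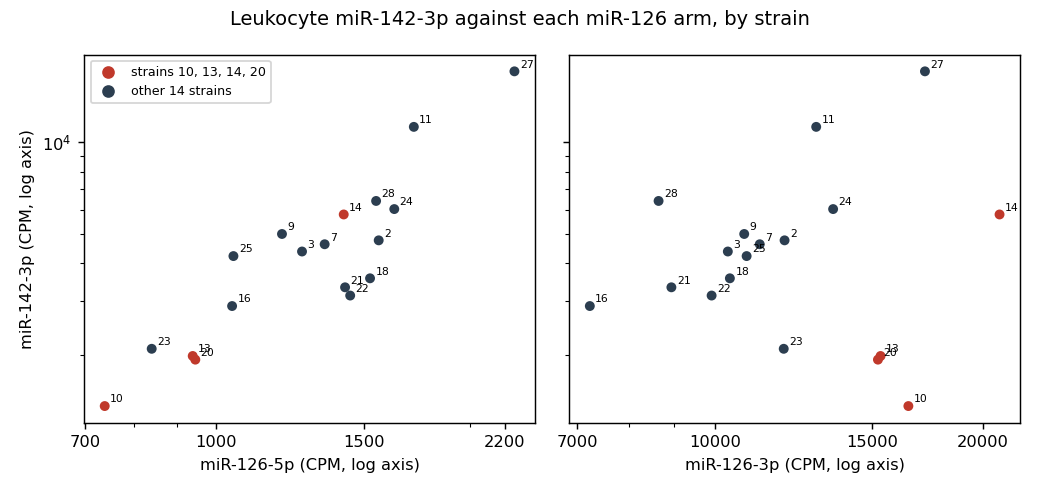
miR-142-3p against miR-126-5p (left) and miR-126-3p (right), in CPM on log axes, each point a strain labelled by its number. On the left the points run from strain 10 (738.9 and 1360 CPM) to strain 27 (2258 and 17093 CPM), and on the right strains 10, 13 and 20 (red) have much miR-126-3p with little miR-142-3p.

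Other leukocyte miRNAs lay on the same side for miR-126-5p. Of the 6 leukocyte rows tested (miR-142-3p, miR-142-5p, miR-146a, miR-150, miR-155 and miR-223), 3 were called positive with miR-126-5p, 0 with miR-126-3p and 2 with the arm ratio (miR-142-3p and miR-146a). Over all tested miRNAs the shares called positive were 3.93%, 10.7% and 19%, and with total counts alone 133 miRNAs in all were positive with miR-126-5p. The nearest to a call with miR-126-3p was miR-142-5p, at 0.97 ± 0.42 (limma adjusted p = 0.101, unadjusted p = 0.0308), and the call of miR-146a with the ratio (0.44 ± 0.16, limma adjusted p = 0.0343) was lost on leaving out strain 10, 13, 20 or 28 and without strains 10, 13, 14 and 20 (0.57 ± 0.34). The median slope of the list on miR-126-5p was 1.12, against 0.00 over all tested miRNAs. Such a shift was not particular to leukocyte miRNAs: the 4 skeletal muscle miRNAs had a median slope of 1.11, with 0 called. miR-150, a miRNA of mature lymphocytes, had a slope of 2.86 ± 0.58 (limma adjusted p = 0.00576) and 4.52 CPM in strain 10, a median of 21.9 CPM and 313 CPM in strain 27. miR-142-5p, from the other arm of the miR-142 hairpin, had a slope of 1.42 ± 0.32 (limma adjusted p = 0.0133), a call lost without strain 27. Neither was called without strains 10, 13, 14 and 20, where their slopes were 2.75 ± 0.71 and 1.65 ± 0.38 (limma adjusted p = 0.16 for miR-150 and 0.0645 for miR-142-5p). miR-155, an activation miRNA of lymphocytes and macrophages, missed the threshold with a slope of 0.82 ± 0.25 (limma adjusted p = 0.0532), as did miR-146a (0.69 ± 0.22, limma adjusted p = 0.0549) and the myeloid miR-223 (0.62 ± 0.20, limma adjusted p = 0.0589). The summed level of the 6 rows was 2271 to 7705 CPM in strains 10, 13, 14 and 20, against 3170 to 19562 CPM in the other 14, and none of the 6 was at 0 in any library. The part of leukocyte content in the level of miR-126-5p was not tested.

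miR-29c, a miRNA that restrains collagen genes, was also positive with miR-126-5p, at 1.09 ± 0.21 (limma adjusted p = 0.00536). It had 19.6 CPM in strain 10, a median of 60.9 CPM and 102 CPM in strain 27, and its call was lost without strain 10 as well as without the 4 strains that stand apart. On the negative side stood miR-182 and miR-183, neighbours in a cluster expressed in epithelial and sensory cells. The cluster did not move as a whole. The slopes of miR-96 (0.35 ± 0.37, limma adjusted p = 0.564) and miR-183* (1.13 ± 0.53, limma adjusted p = 0.161) were positive and not called. miR-182 had 5678 CPM in strain 27, a median of 12131 CPM and 31418 CPM in strain 10, the reverse order of miR-126-5p at both ends, with a slope of -1.07 ± 0.19 (limma adjusted p = 0.00298). miR-183 had a slope of -0.88 ± 0.25, miR-669c of -0.93 ± 0.27 (limma adjusted p = 0.0463 each) and miR-1981 of -0.62 ± 0.16 (limma adjusted p = 0.0394). None of these 4 negative calls held with total counts alone or without strains 10, 13, 14 and 20, where the slope of miR-182 was -0.74 ± 0.24.

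With miR-126-3p the smallest p belonged to miR-215, a miRNA induced by p53 and related in sequence to miR-192. miR-215 is low, with a mean of 10.0 CPM, just at the minimum for testing. It was under 10 CPM in 13 strains and passed only through the few where it was high, among them strains 14 and 27, which are also the highest for miR-126-3p (mean 8.65 CPM without strain 14), so its call is no independent support. It had 2.47 CPM in strain 16, a median of 7.30 CPM and 33.1 CPM in strain 14, the strains where miR-126-3p was lowest and highest. Its slope was 1.86 ± 0.33 (limma adjusted p = 0.00232; rho = 0.849, n = 18). It was called in all 18 fits with 1 strain left out, and it was the 1 call left without strains 10, 13, 14 and 20 (2.28 ± 0.44, limma adjusted p = 0.022). The minimum was set over all 18 strains in these fits too, so they are no independent support either. With total counts alone it fell under the minimum and was not tested.

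The other miRNAs closest to miR-126-3p on the positive side were miR-378 (1.63 ± 0.30), miR-16 (0.89 ± 0.17) and miR-103 (1.06 ± 0.21), all abundant. miR-378, encoded within Ppargc1b and linked to oxidative metabolism, had 14408 CPM in strain 7, a median of 25947 CPM and 126567 CPM in strain 14. On the negative side were miR-183* (-2.10 ± 0.38), miR-19b of the miR-17-92 cluster (-1.28 ± 0.26), miR-671-5p (-1.26 ± 0.26) and miR-423-5p (-1.10 ± 0.22). miR-183* had 9.74 CPM in strain 14, a median of 50.3 CPM and 86.6 CPM in strain 25. Limma's adjusted p was 0.00232 for miR-378 and miR-183* and 0.00236 for the other 5. All 7 calls were lost with total counts alone and without strains 10, 13, 14 and 20. Without these strains the slope was as large or nearly so for miR-16 (1.10 ± 0.27), miR-103 (0.90 ± 0.28) and miR-423-5p (-0.88 ± 0.30), and smaller for miR-378 (0.72 ± 0.36), miR-183* (-0.83 ± 0.38), miR-19b (-0.48 ± 0.30) and miR-671-5p (-0.43 ± 0.28).

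Other miRNAs known from endothelium and angiogenesis were called with miR-126-3p and miR-126-5p about as often as all tested miRNAs, 4 and 1 of 21, beside 19.3% and 5.36% over the table. Of 23 rows of the list, 21 were tested. With miR-126-3p, 0 were called positive and 4 negative, namely miR-18a and miR-92a of the miR-17-92 cluster (-1.16 ± 0.27 and -0.60 ± 0.20), miR-130a (-0.96 ± 0.26) and the hypoxia miRNA miR-210 (-1.33 ± 0.41). The list's median slope was -0.10, against 0.10 over all tested miRNAs. With miR-126-5p, 1 was called, miR-322 (0.58 ± 0.17, limma adjusted p = 0.0463), and the median slope was 0.16, against 0.00. With the arm ratio 6 were called, all positive, beside 40.1% over the table (19% positive and 21.1% negative). They were miR-18a, miR-92a, miR-23a, miR-23b, miR-130a and miR-322, and the list's median slope was 0.10, against -0.03. The 3 most abundant members, miR-27b, miR-24 and miR-101a, were called with none of the 3 (slopes on miR-126-3p of 0.08 ± 0.22, 0.16 ± 0.21 and -0.03 ± 0.17). The summed level of the list was 62786 to 93123 CPM in strains 10, 13, 14 and 20, against 56068 to 103301 CPM in the other 14. All 4 negative calls with miR-126-3p were lost with total counts alone and without strains 10, 13, 14 and 20, where the slopes were -0.28 ± 0.31 for miR-18a, -0.66 ± 0.31 for miR-92a, -0.97 ± 0.39 for miR-130a and -1.17 ± 0.67 for miR-210. The calls with miR-126-5p and with the ratio were also lost without these 4 strains. With miR-126-3p, single strains ended the call of miR-92a (10, 13, 16, 20, 21 or 28) and of miR-210 (10, 14, 16 or 21). The call of miR-322 with miR-126-5p was lost on leaving out any of 10 of the 18 strains in turn, as was that of miR-92a with the ratio. Also with the ratio, miR-23b was lost without strain 10 or 20, and miR-23a and miR-322 without strain 10. The ratio calls of miR-18a and miR-130a held in all 18 such fits. Many of these miRNAs are made by epithelial cells as well.

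Lists of mural and muscle miRNAs were short, so that their counts say little beside the shares over all miRNAs (19.3% with miR-126-3p, 40.1% with the ratio). miR-145, of smooth muscle and pericytes, had 37.8 CPM in strain 10, a median of 161 CPM and 272 CPM in strain 28. Its slope was -1.12 ± 0.36 with miR-126-3p (limma adjusted p = 0.0305) and 1.07 ± 0.18 with the arm ratio (limma adjusted p = 0.000179); the first call was lost on leaving out strain 10, 13, 16, 20, 21 or 28, and that slope was 0.18 under total counts alone. Neither call held without strains 10, 13, 14 and 20, and the slopes were -0.66 ± 0.33 with miR-126-3p and 0.64 ± 0.31 with the ratio. miR-143, from the same cluster, was called with the ratio in the opposite direction (-0.58 ± 0.21, limma adjusted p = 0.0335), a call lost with total counts alone and on leaving out strain 10, 14, 18, 20 or 23, and without the 4 strains that stand apart (-0.16 ± 0.42). The 2 members of this list thus moved apart. Of 4 skeletal muscle miRNAs (miR-1, miR-133a, miR-133b and miR-206), 1 was called, miR-206 with miR-126-3p (1.72 ± 0.55, limma adjusted p = 0.0316). That call was lost without strain 13, 14, 20 or 28, with total counts alone and without strains 10, 13, 14 and 20 (1.33 ± 0.74). With miR-126-5p all 4 slopes were positive and 0 were called. They were 1.64 ± 0.55 for miR-133b (limma adjusted p = 0.0589), 1.71 ± 0.67 for miR-133a (limma adjusted p = 0.101), 0.57 ± 0.61 for miR-1 and 0.03 ± 0.64 for miR-206. Of 3 erythroid miRNAs 0 were called by limma with either arm or the ratio; miR-451 had a slope of 0.78 ± 0.29 on miR-126-3p (limma adjusted p = 0.0646, unadjusted p = 0.0134) and miR-144 of 0.88 ± 0.27 on miR-126-5p (limma adjusted p = 0.0539, unadjusted p = 0.00391). The mesenchymal miR-199a-3p and miR-214 were not called either, and miR-199a-3p had a slope of 0.39 ± 0.16 on miR-126-5p (limma adjusted p = 0.118).

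Among epithelial miRNAs, miR-200c of the miR-200 family, which holds epithelial cells in their differentiated state, had 11090 CPM in strain 28, a median of 15358 CPM and 26236 CPM in strain 10, the opposite order to the arm ratio at both ends. Its slope was -0.64 ± 0.09 on the ratio (limma adjusted p = 1.92e-05), 0.66 ± 0.20 on miR-126-3p (limma adjusted p = 0.0236) and -0.64 ± 0.19 on miR-126-5p (limma adjusted p = 0.0532). miR-141, from the same transcript, was called with the ratio (-0.47 ± 0.13, limma adjusted p = 0.00908), and miR-200a was not (0.19 ± 0.14, limma adjusted p = 0.298). Of the 5 family members tested, 2 were called negative with the ratio and 1 positive with miR-126-3p, beside 21.1% and 10.7% over all miRNAs. With miR-126-5p 0 were called, and the slopes of miR-200b (-0.14 ± 0.17), miR-200a (0.03 ± 0.21) and miR-429 (0.19 ± 0.25) were small. With total counts alone none of these 3 calls held, and the slope of miR-141 on the ratio was 0.02. The call of miR-200c with miR-126-3p was also lost without strain 10, 21 or 28, and that of miR-141 without strain 10. None of the 3 was called without strains 10, 13, 14 and 20, with slopes of -0.64 ± 0.19 for miR-200c and -0.61 ± 0.25 for miR-141 on the ratio and 0.28 ± 0.26 for miR-200c on miR-126-3p. The basal miRNAs miR-203 and miR-205 were called with none of the 3.

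The miRNAs closest to the arm ratio included arms of other hairpins. On the positive side were miR-339-3p (1.55 ± 0.16, limma adjusted p = 1.42e-06), miR-24-2* (1.08 ± 0.13), miR-376a* (1.56 ± 0.19) and miR-190 (1.09 ± 0.15), and on the negative side miR-103 (-0.83 ± 0.10), miR-200c, miR-139-3p (-1.0 ± 0.14) and miR-184 (-1.36 ± 0.20). miR-339-3p had 2.43 CPM in strain 10, a median of 13.0 CPM and 23.7 CPM in strain 11. miR-376a* had 0.93 CPM in strain 10 and a median of 14.6 CPM, and miR-139-3p a median of 9.69 CPM. These 3 averaged 12.2 to 12.3 CPM, near the minimum for testing, and passed through the strains where they were high. Their calls are therefore no independent support. None of these 8 was called without strains 10, 13, 14 and 20. The slopes were then -0.97 ± 0.22 for miR-103, -0.64 ± 0.19 for miR-200c and 1.21 ± 0.31 for miR-339-3p, close to those over 18 strains but with larger errors. Those of miR-24-2* (0.61 ± 0.24), miR-376a* (0.71 ± 0.28), miR-190 (0.81 ± 0.28), miR-139-3p (-0.59 ± 0.29) and miR-184 (-0.66 ± 0.35) were smaller.

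The balance of arms in other hairpins moved with that of miR-126. For each of the 13 other hairpins with both arms at 10 CPM or more, the log2 ratio of the 5p to the 3p reads was fitted on that of miR-126 with limma. Of the 13, 6 had a positive slope (46.2%) and 5 a negative slope (38.5%) past the threshold (84.6% called), and miR-338 (limma adjusted p = 0.0519) and miR-532 (limma adjusted p = 0.561) were not called. The slopes thus ran in both directions, towards the 5p arm in some hairpins and towards the 3p arm in others. Depth and scaling cancel within a hairpin, but the ratios share the 18 libraries. When hairpins with starred arms were counted too, as the less over the more abundant arm, an alternative chosen after seeing the data, 34 of 56 were called (60.7%).

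The 3 hairpins with the smallest p were miR-139, miR-342 and miR-339, and their arms are printed for comparison with miR-126-3p, each with bases 2 to 8 in capitals (RefSeq, GRCm38.p6). miR-139 lies at chr7:101475382-101475439 and miR-342 at chr12:108658638-108658702 on the plus strand, and miR-339 at chr5:139369673-139369730 on the minus strand, each span running over both arms.
miR-139-5p: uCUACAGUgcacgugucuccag
miR-139-3p: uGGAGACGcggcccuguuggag
miR-342-5p: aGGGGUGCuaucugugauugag
miR-342-3p: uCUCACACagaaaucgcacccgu
miR-339-5p: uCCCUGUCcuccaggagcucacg
miR-339-3p: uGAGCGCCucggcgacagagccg
Each of these seeds occurred in 1 mature entry of the table, so no seed is shared among them.

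The log2 ratio of miR-139 was -1.03 to 0.47 in strains 10, 13, 14 and 20, against 0.61 to 2.41 in the other 14, so the ranges did not overlap. This ratio favoured the 5p arm in the 14 and also in strains 13 (0.14) and 14 (0.47), but not in strains 10 (-1.03) and 20 (-0.60). Its slope on the miR-126 ratio was 1.63 ± 0.18 (limma adjusted p = 1.39e-13; rho = 0.796, n = 18). The log2 ratio of miR-342 was -1.15 to 0.18 in the 4 strains, against -3.26 to -1.65 in the other 14, with the balance tilted further to the 3p arm in the 14. Its slope was -1.59 ± 0.18 (limma adjusted p = 1.39e-13; rho = -0.872, n = 18). The log2 ratio of miR-339 was 1.76 to 2.28 in the 4 strains, against -0.63 to 1.46 in the other 14. Its slope was -1.45 ± 0.18 (limma adjusted p = 5.49e-12, rho = -0.839, n = 18). Limma shared its variance estimate over the 13 hairpins, which come from the same 18 libraries, so these p-values rest on more than 18 values. In the permutation test of rho, the adjusted p was 0.000737 for miR-139, 0.00013 for miR-342 and 0.00026 for miR-339.

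The less abundant arm of these hairpins was low, averaging 12.2 CPM for miR-139, 12.3 CPM for miR-339 and 34.8 CPM for miR-342. miR-139-3p had a median of 9.69 CPM, under the 10 CPM minimum, and passed through the strains where it was high. It was highest in strain 10, at 35.0 CPM. miR-339-3p was at 2.4 to 3.9 CPM in strains 10, 13, 14 and 20 and passed through the other strains. Both hairpins were thus tested because of strains that also shape their slopes. Their small p-values over all strains are therefore no independent support.

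Within the other 14 strains the slopes of these 3 hairpins kept their direction, but the 10 CPM minimum was still set over all 18. The fits for miR-139 and miR-339 are thus no independent support. Without strains 10, 13, 14 and 20, the slope of miR-339 was -1.55 ± 0.36 (limma adjusted p = 0.000392), that of miR-139 was 1.04 ± 0.36 (limma adjusted p = 0.0281) and that of miR-342 was -0.93 ± 0.36 (limma adjusted p = 0.0437), and no other hairpin was called. With strain 28 also left out, miR-339 alone was called (-1.56 ± 0.41, limma adjusted p = 0.0031). Among the 56 hairpins with starred arms counted too, miR-139 and miR-342 were not called without the 4 strains (limma adjusted p = 0.0635 and 0.0742). miR-345 (0.84 ± 0.17), miR-125a (0.72 ± 0.19) and miR-151 (0.72 ± 0.18) followed over all 18 strains. Without the 4 strains their slopes were 0.53 ± 0.35, 0.51 ± 0.37 and -0.05 ± 0.36, none of them called.

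**Figure D4:**
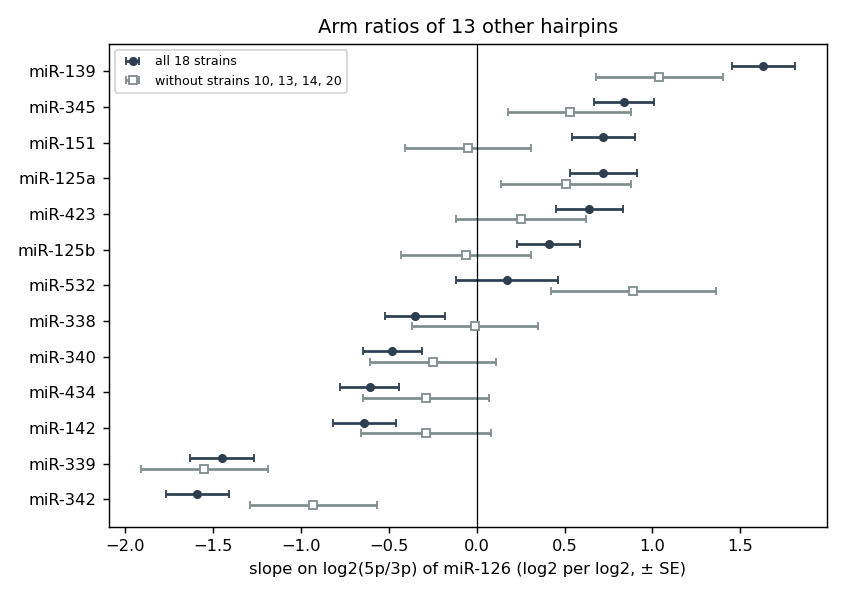
Slope of the log2 5p/3p ratio of each of 13 hairpins on that of miR-126 (log2 per log2, ± SE), over all 18 strains (filled circles) and without strains 10, 13, 14 and 20 (open squares). miR-139 lies at 1.63 and 1.04, miR-339 at -1.45 and -1.55 and miR-342 at -1.59 and -0.93.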

How the data were processed

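The authors' deposited table gives log2 values of 583 mature miRNAs in 18 pools. Per the submitters' processing notes, BWA and the mm9 build were used; the counting tool, annotation and filters are not stated. On a linear scale, the deposited log2 values are whole reads multiplied by a library constant, which held for 99.5% of 3818 values of up to 50 reads within 0.006 log2. Values were turned back to reads, with 0 kept at 0. As the unit is log2, no count model was run. Identical rows were counted once (571 distinct), scaling used the trimmed mean of M values (30% and 5% trimmed), and log2(CPM + 1) was used, which makes changes of low rows look smaller.

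Tests covered the 281 rows averaging 10 CPM or more, using limma 3.58.1 in R 4.3.3 (trended robust prior; no trend for hairpin ratios, which use reads + 0.5), and the relations with permutation tests (Python 3.11.15, scipy 1.17.1). The slope fit was tested on simulated data first. Counting intervals are exact Poisson or binomial ones and do not tell PCR copies apart. No cultures or replicate animals are given, so n is the number of strain pools.

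Named miRNAs are, for each covariate, the 4 with the smallest p in each direction, the 6 hairpins with the smallest p, the 3 most abundant tested members of each list and all leukocyte, erythroid and smooth muscle members; other called list members are named as well. The members, lists and tests were chosen with earlier results of these data known, including that strains 10, 13, 14 and 20 stand apart. Alternatives were 3 other scalings, 2 pseudocounts, other filters, no robust option, rank correlations, each strain left out, and the 4 or 5 strains left out; hairpins with starred arms were added after the data had been seen. Sequences come from RefSeq (GRCm38.p6); the deposited table has no coordinates.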

Additional observations from a re-analysis of the deposited data

How the results depend on the processing

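No paired analysis was possible because each strain is 1 pool and the labels give no replicate numbers. The mean levels of both arms and the mean arm ratio moved by less than 1 SD under every alternative run. This is a weak check. Every set of scaling factors had a geometric mean of 1, and scaling cannot move the arm ratio. Filters and the robust option leave the reads of the arms as they are. The rho between the arms was 0.42 with total counts alone, 0.024 with the upper quartile, 0.013 with median of ratios, 0.49 without strains 10, 13, 14 and 20, 0.566 when strain 28 was removed as well, and -0.203 to 0.088 with 1 strain left out; the cause was not tested.

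Positive and negative calls with miR-126-3p (30 and 24) numbered 0 and 0 with total counts alone, 1 and 0 without the 4 strains as well as without the 5; with the upper quartile 54 were positive, and with a minimum of 100 CPM, which tests fewer rows, 19 and 10. Those with miR-126-5p (11 and 4) became 133 positive with total counts alone, 5 and 1 with the upper quartile and with median of ratios, 6 and 2 with no filter, 2 and 1 with rank correlations, 7 negative at 100 CPM, and 1 and 0 without the 4 or the 5 strains. Those with the ratio (53 and 59) were 142 and 4 with total counts alone, 0 and 0 without the 4 or 5 strains (32 and 30 at an unadjusted p under 0.05 in limma), 23 positive at 100 CPM and 31 positive with rank correlations. With 1 strain left out, counts ran from 19 to 43 and 17 to 35 with miR-126-3p, 4 to 28 and 1 to 19 with miR-126-5p, 32 to 54 and 33 to 61 with the ratio, and 5 to 6 and 4 to 6 for hairpins. Hairpin calls (6 and 5) were 1 and 2 without the 4 strains and 0 and 1 without the 5; with starred arms as well, 34 of 56 hairpins were called, an alternative chosen after seeing the data. A minimum of 100 CPM left 2 hairpins, too few for a fit, so that alternative was not run.

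Of 98 named slopes, 25 had another sign under at least 1 alternative, and 3 of these had been called: miR-145 with miR-126-3p (0.18) and miR-141 with the ratio (0.02), both with total counts alone, and the hairpin ratio of miR-151, -0.05 without the 4 strains and -0.11 without the 5. Depth does not limit the arms themselves, with at least 5518 reads of miR-126-5p and 46021 of miR-126-3p in every library; the single library per strain does.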

Other observations

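When hairpins with starred arms were included, chosen after the data had been seen, the miR-183 hairpin had the smallest p of 56. The log2 ratio of its less abundant to its more abundant arm was -10.68 to -9.37 in strains 10, 13, 14 and 20, against -7.90 to -6.04 in the other 14 strains, and its slope on the miR-126 ratio was 2.44 ± 0.21 (limma adjusted p = 3.94e-09). Without the 4 strains the slope was 1.21 ± 0.29 (limma adjusted p = 0.0144), and miR-339 was the other hairpin called. miR-376a had a slope of 1.80 ± 0.19 over all 18 strains and of 0.96 ± 0.28 without the 4 (limma adjusted p = 0.0503). Its less abundant arm, miR-376a*, averaged 12.2 CPM and fell to 0.93 CPM in strain 10. It passed the minimum through strains that also shape the slope, which is therefore no independent support. miR-27a, whose starred arm is counted against its abundant arm, had a rho of -0.92 with a slope of -0.46 ± 0.11 (limma adjusted p = 0.00134). It was not called without the 4 strains (-0.51 ± 0.22, limma adjusted p = 0.243) or with strain 28 left out as well (-0.38 ± 0.25, limma adjusted p = 0.459). What library features had to do with these ratios was not tested.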
